A study of Mus musculus with 10 samples.

Results

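The 9 genes described here encode regulators and cofactors of the Hox genes and were taken by symbol: the caudal genes Cdx1 and Cdx2, and the TALE homeodomain genes Meis1, Meis2, Meis3, Pbx2, Pbx3, Pbx4 and Pknox2. They are 9 of the 24500 genes in the count tables, and the rule that selects them, a list of symbols, contains no threshold on a measured value. The list was drawn up with earlier results of these data known, so counts of these genes set against all genes are descriptions. The libraries came from E14 mouse embryonic stem cells, given by the labels as strain 12910la, and carried either a wild-type Ezh2 gene (control) or an Ezh2 gene knocked out at exon 14, made by CRISPR-Cas9 and called ex14D here. In these lines the splice form of EZH2 without that exon is left, although the labels call the cells a knockout. Chromatin immunoprecipitation followed by sequencing (ChIP-seq) was done for H3K27me3 and for EZH2, with 2 libraries for each antibody and genotype and 1 input library for each genotype, 10 libraries in all.

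EZH2 is the catalytic subunit of Polycomb repressive complex 2 (PRC2), which places methyl groups on lysine 27 of histone H3, and the trimethylated form, H3K27me3, marks genes kept silent in embryonic stem cells. Cdx proteins bind and activate Hox genes in the posterior embryo and act downstream of Wnt, FGF and retinoic acid signals. Meis, Pknox and Pbx proteins bind DNA together with each other and with Hox proteins and alter which sites the Hox proteins bind.

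H3K27me3 and input reads were counted by the authors in a window of 1 kb centred on the most 5′ start of each gene, so that the levels of different genes can be set side by side. The gene windows held 594289 to 1450937 reads in the H3K27me3 libraries and 409371 and 416778 reads in the inputs, and the input gave only 12 to 31 reads for each of the 9 genes. Values are given as CPM, the reads of a gene scaled to the same total of reads on genes in every library. No added reference chromatin is described, so every level is a share of its own library and a change common to all promoters cannot be seen. The paper reports, by Western blot, less H3K27me3 and less EZH2 protein in ex14D cells. By ChIP-PCR it also reports less H3K27me3 at selected developmental genes, Hoxa10 and Hoxd9 among them. A rise given below is thus a rise in share and need not be a gain of the mark. The labels do not say whether the 2 libraries of a group came from separate cultures or lines, so the p-values measure the spread between these libraries, which may be technical. ChIP reads at promoters cannot check the state of exon 14. Of 9 embryonic stem cell marker genes, 1 reached 2-fold over input in both control libraries (Klf4) and 0 in both ex14D libraries, against 4 of 5 genes of early mesoderm in each genotype and 3 of 6 fibroblast genes in control and 1 of 6 in ex14D.

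The promoters of Cdx2 and Pbx2 are printed because one was heavily marked and the other was not, Cdx2 with the highest level of the 9 genes in both genotypes and Pbx2 below input in every library. Each run holds the 250 bases before the start of the gene on its own strand, from RefSeq (GRCm38.p6), with every CG dinucleotide in capitals. Cdx2 lies at chr5:147300900-147307249 on the minus strand and its run at chr5:147307250-147307499. Pbx2 lies at chr17:34592259-34597400 on the plus strand and its run at chr17:34592009-34592258.
Cdx2: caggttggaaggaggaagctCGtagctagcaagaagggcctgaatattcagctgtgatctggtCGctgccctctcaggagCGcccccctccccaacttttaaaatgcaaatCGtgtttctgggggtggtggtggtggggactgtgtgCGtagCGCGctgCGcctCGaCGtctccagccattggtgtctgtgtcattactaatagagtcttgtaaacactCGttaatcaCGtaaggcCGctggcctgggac
Pbx2: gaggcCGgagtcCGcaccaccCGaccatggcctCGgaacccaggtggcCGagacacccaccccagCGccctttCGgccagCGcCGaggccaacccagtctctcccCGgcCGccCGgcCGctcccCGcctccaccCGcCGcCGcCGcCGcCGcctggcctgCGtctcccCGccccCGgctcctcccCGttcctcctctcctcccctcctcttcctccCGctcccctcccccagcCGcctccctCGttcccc

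The Cdx2 run held 13 CG and the Pbx2 run 27, so that the unmarked promoter of this pair had more CG than the marked one. The median over 32841 RefSeq promoter entries was 6, and 31.5% of entries held as many CG as Cdx2 or more and 8.57% as many as Pbx2 or more. Of the 9 genes, 6 have an entry (Cdx2, Meis1, Meis2, Meis3, Pbx2 and Pbx4), with 13 CG for Meis1, 7 for Meis2 and 12 each for Meis3 and Pbx4. Cdx1, Pbx3 and Pknox2 have none. The Meis2 entry begins at an internal start and lies outside the window in which the authors counted. The letters TTTATG (Cdx), TGACAG (Meis and Pknox) and TGATTNAT (Pbx), searched on both strands, had 0 matches in these 6 runs, and 10.8%, 15.9% and 2.83% of all entries held them.

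In control cells the mark lay on the caudal genes, on Meis1 and Meis2 and, at lower level, on Pknox2 and Pbx3. The mean over the 2 control libraries of log2 H3K27me3 over input, with 1 CPM added to both, was 3.87 ± 0.26 (SD, n = 2) for Cdx2, 2.71 ± 0.26 for Meis2, 2.59 ± 0.20 for Cdx1 and 2.36 ± 0.42 for Meis1. Neighbours among Meis2, Cdx1 and Meis1 differed by less than the larger SD of the pair, whereas Cdx2 stood above all 3 in both libraries. Both libraries of a genotype share a single input, so the SDs leave out its counting error. Pknox2 followed with 1.47 ± 0.58 and Pbx3 with 1.20 ± 0.24, which did not differ beyond their spread, and Meis3 lay at 0.40 ± 0.03. Pbx2, a widely expressed partner of Hox proteins, lay at -1.78 ± 0.35, and Pbx4, known from the testis, at -2.36 ± 0.16. Both thus had a lower CPM for H3K27me3 than for input, which was usual, as the median over all promoters was -1.51.

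With a promoter called marked when each library of the genotype reached 2-fold over input, 6 of the 9 genes were marked in control (Cdx1, Cdx2, Meis1, Meis2, Pbx3 and Pknox2), where 11.3% of all 24500 promoters were. In ex14D cells 4 of the 9 were marked (Cdx1, Cdx2, Meis1 and Meis2), where 9.14% of all promoters were. Pknox2 passed in 1 of the 2 ex14D libraries and Pbx3 in neither. Ranked by mean level among all promoters, Cdx2 was in the top 0.322% in control and 0.188% in ex14D, and Meis2 went from the top 3.12% to the top 0.714%. A lower input in ex14D adds to the Meis2 shift. That input held 12 reads (28.8 CPM, 95% interval 14.9 to 50.3 CPM), and the control input held 19 reads (46.4 CPM). In ex14D the mean log2 levels over input were 5.01 ± 0.15 (SD, n = 2) for Cdx2, 4.25 ± 0.04 for Meis2 and 2.73 ± 0.07 for Cdx1. Meis1 followed at 2.28 ± 0.03, Pknox2 at 1.16 ± 0.47 and Meis3 at -0.45 (SD 0.0022). Each was further from the next than the SDs, which leave out the counting error of the shared input. Whether the order holds beyond that error was not tested. Below Meis3, Pbx3 at -1.87 ± 0.30, Pbx4 at -2.23 ± 0.32 and Pbx2 at -2.38 ± 0.53 did not differ beyond their spread. In rank Pbx3 went the other way from Cdx2 and Meis2, from the top 11.4% to the top 47.6%, while Cdx1 (3.64% and 3.45%) and Meis1 (4.60% and 4.69%) kept their place.

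**Figure D1:**
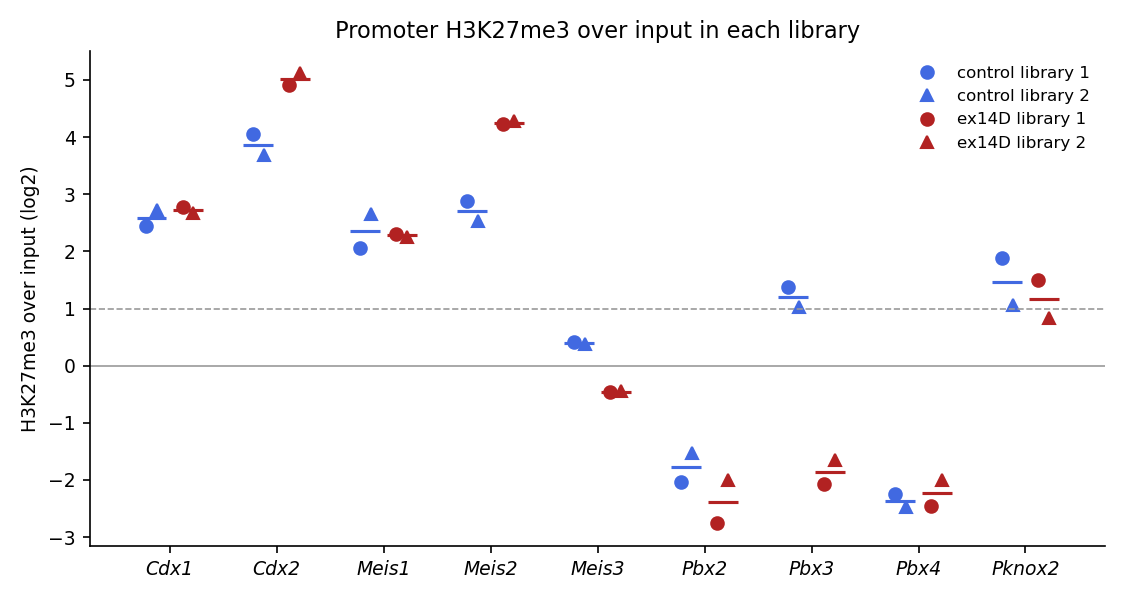
H3K27me3 over input (log2, 1 CPM added) at the promoters of the 9 genes, with 1 point for each library, control in blue and ex14D in red, circles for library 1 and triangles for library 2. Short bars are means, the solid line marks the input level and the dashed line 2-fold over input. Cdx2 and Meis2 are higher in both ex14D libraries, at 4.91 and 5.12 and at 4.23 and 4.28, and Pbx3 drops from 1.37 and 1.03 in control to -2.08 and -1.66.

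The comparison of ex14D with control asks whether the genotype with the shorter EZH2 form kept the mark at the same promoters. All 9 genes passed the filter on low counts and entered a fit over 14883 promoters (edgeR's quasi-likelihood test with TMM scaling and Benjamini-Hochberg adjustment, threshold 0.05). H3K27me3 rose at 3 of the 9 promoters, Cdx2, Meis2 and Meis1, where 5.83% of all promoters tested rose, and fell at 1, Pbx3, where 3.25% fell. The remaining 5 did not pass the test. Taking both directions, 4 of the 9 were called, against 9.07% of promoters. Over all promoters tested the median log2 fold change was -0.03.

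Cdx2, which specifies trophectoderm and intestine and activates posterior Hox genes, had 395 and 483 promoter reads in control and 1503 and 1498 in ex14D, or 665 and 515 CPM against 1036 and 1200.3 CPM. Both ex14D libraries were above both control libraries. Its log2 fold change was 1.37 (SE 0.21, adjusted p = 4.12e-05 by edgeR's quasi-likelihood test). The input held 16 reads in control and 14 in ex14D at this promoter. Cdx1, which helps to pattern the vertebrae, had 208 and 401 reads in control and 557 and 448 in ex14D. In CPM these are 350.0 and 428 against 384 and 359, so the groups overlapped, and only after TMM scaling were both ex14D libraries higher. The log2 fold change of Cdx1 was 0.38 (SE 0.20, adjusted p = 0.288 by edgeR), and with scaling by library size only it was -0.071. Both caudal genes were thus heavily marked, and the test of change was passed by Cdx2 alone. The difference between their changes was not tested.

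Meis2, a Meis gene of the limb, heart and neural crest, had 208 and 255 reads in control and 808 and 722 in ex14D, or 350.0 and 272 CPM against 557 and 579 CPM. The groups did not overlap. The log2 fold change was 1.32 (SE 0.20, adjusted p = 5.60e-05 by edgeR's quasi-likelihood test), a size close to that of Cdx2. Meis1, which is needed in blood stem cells, had 117 and 279 reads in control and 471 and 392 in ex14D. In CPM the ex14D libraries at 325 and 314 were just above control library 2 at 298 and further above control library 1 at 197. Its log2 fold change was 0.80 (SE 0.21, adjusted p = 0.0136 by edgeR). Over input the order was not kept, because the ex14D input held 27 reads at this promoter and the control input 19: Meis1 was at 2.06 and 2.66 in control and at 2.31 and 2.26 in ex14D on the log2 scale, and these overlap.

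The calls of the 3 genes were not kept without control library 2. That fit held a lone control library and gave fewer calls over all promoters as well, so the loss was not particular to these genes. The log2 fold changes were then 1.15 for Cdx2, 1.10 for Meis2 and 1.10 for Meis1. With all libraries they were 1.37, 1.32 and 0.80. The Meis1 call was also lost without control library 1 (log2 fold change 0.52, adjusted p = 0.118), without ex14D library 1 (0.79, 0.177), without ex14D library 2 (0.84, 0.150 by edgeR), with library size only (0.35, 0.247) and with all counted reads as library size (0.66, 0.0607).

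Meis3, the least marked Meis gene, had 41 and 63 reads in control and 58 and 50 in ex14D. In CPM it was at 69.0 and 67.2 in control and 40.0 and 40.1 in ex14D, with no overlap, but after TMM scaling the log2 fold change of -0.32 (SE 0.31) did not pass the test (adjusted p = 0.633 by edgeR). Pknox2, a Pbx partner of the Meis and Pknox group, had 141 and 125 reads in control and 150 and 81 in ex14D. Its CPM was 237 and 133 against 103 and 64.9, the groups overlapped after TMM scaling, and the log2 fold change was -0.67 (SE 0.28, adjusted p = 0.146 by edgeR). With library size only the value for Pknox2 was -1.11 and passed the test (adjusted p = 0.00842). The same choice moved the median of all promoters to -0.47 and the calls over all promoters from 867 higher and 483 lower to 398 higher and 2130 lower.

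Pbx3, a Hox partner needed for breathing at birth, was the member whose H3K27me3 fell past the test's threshold at the promoter. It had 61 and 76 reads in control against 17 and 20 in ex14D, although the ex14D libraries were the deeper ones. The CPM values were 103 and 81.1 against 11.7 and 16.0, with no overlap, and in ex14D they were below the input at 52.8 CPM. The log2 fold change was -2.27 (SE 0.35, adjusted p = 5.65e-05 by edgeR's quasi-likelihood test), and it ranged from -2.72 to -2.05 over 12 alternative settings and passed the test in each. Pbx2 had 7 and 16 reads in control and 7 and 11 in ex14D, and Pbx4 9 and 12 against 9 and 11. These counts were too low to show a change of modest size, with log2 fold changes of -0.69 (SE 0.52, adjusted p = 0.504 by edgeR) for Pbx2 and -0.44 (SE 0.50, adjusted p = 0.698) for Pbx4.

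A ratio of reads between 2 promoters of the same library needs no scaling. The pairs were chosen after the values were seen, mostly to set a gene that rose against one that did not, so the direction of their ratios follows from the choice and the ratios are given as a description. Cdx2 had 6.48 and 6.36 times the reads of Pbx3 in control and 88.4 and 74.9 times in ex14D. Meis2 over Pbx3 went from 3.41 and 3.36 to 47.5 and 36.1. Within the Meis genes, Meis3 over Meis2 went from 0.197 and 0.247 to 0.0718 and 0.0693, and within the caudal genes Cdx1 over Cdx2 from 0.527 and 0.830 to 0.371 and 0.299. Meis2 over Meis1, genes that both rose, was 1.78 and 0.914 in the control libraries against 1.72 and 1.84 in the ex14D libraries, which overlap.

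**Figure D2:**
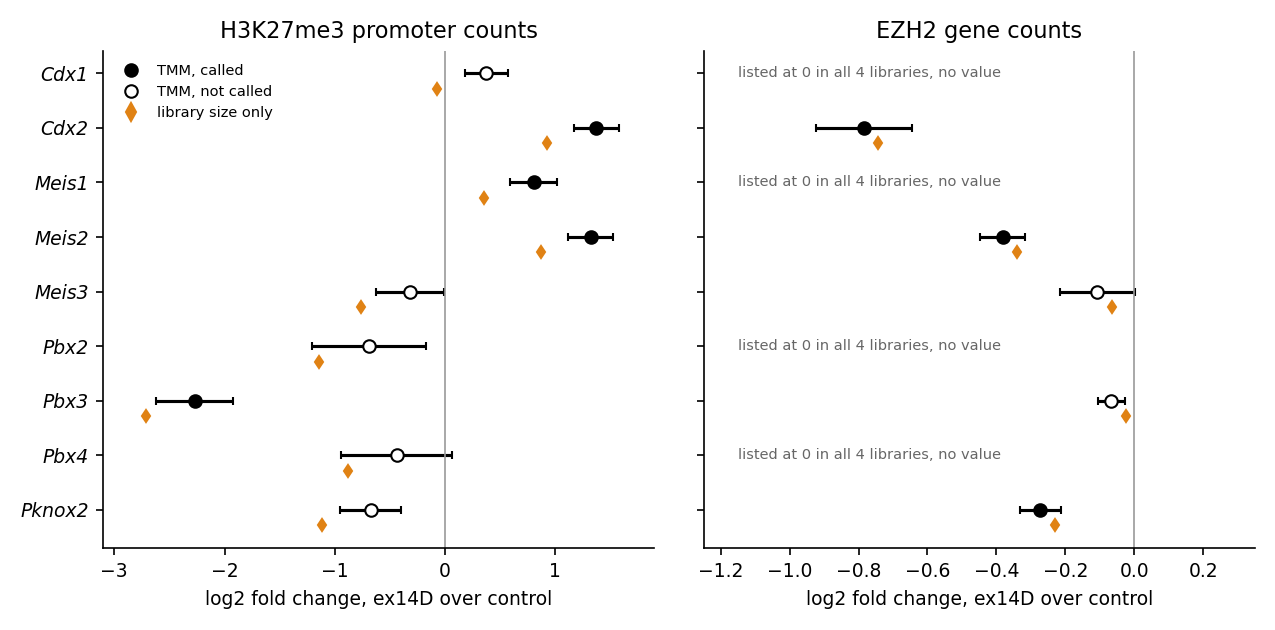
Log2 fold change of ex14D over control for H3K27me3 at the promoter (left) and EZH2 over the gene (right, on a narrower axis), with bars of 1 SE. Filled circles passed the test in the fit with TMM scaling, open circles did not, and diamonds show the value with scaling by library size only, which shifts the H3K27me3 values lower. Cdx2 and Meis2 are higher for H3K27me3 (1.37 and 1.32) and lower for EZH2 (-0.78 and -0.38).

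The peaks showed how far the mark reached. MACS2 peaks were called by the authors in each library, and a peak overlapped the 1 kb window by at least 1 base in both control libraries at 7 of the 9 genes, where 18.0% of 24367 placed promoters had one, and in both ex14D libraries at 6, where 16.5% did. With this overlap Pbx3 was the gene without a peak in ex14D, but which gene differed depended on the rule. With an overlap of at least 500 bases, Pbx3 had no peak in any of the 4 libraries, and Meis3 and Pknox2 were without one in ex14D library 2. With peaks of q under 0.001 alone, 5 genes had one in both control libraries and 6 in both ex14D libraries. Under that rule the heavily marked Cdx2 lacked one in control library 1 and Meis2 in control library 2. The shares of all promoters under these stricter rules were not computed. Pbx2 and Pbx4 had no peak over the gene in the 4 libraries. At Cdx2 a single peak of 25.8 and 27.9 kb in control and 24.3 and 23.5 kb in ex14D covered the whole gene and reached upstream to between -11.5 and -16.2 kb from the start. These peaks were among the widest 0.845% of each library's peaks. Meis2 peaks spanned 21.1 and 23.1 kb in control and 22.2 and 21.6 kb in ex14D around the start, so that at both promoters the read counts differed while the widths stayed close.

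At Meis1 the peak over the promoter measured 17.1 and 24.9 kb in control and 23.4 and 17.5 kb in ex14D, and at Cdx1 14.2 and 19.1 kb against 16.5 and 12.5 kb. The genotypes overlapped in both cases. Pknox2 was covered around its start by peaks of 8.22 and 8.91 kb in control and 7.90 and 6.75 kb in ex14D, the last of which began 0.269 kb inside the gene. Over the whole Pknox2 gene and 5 kb on either side there were 10 and 17 peaks in control and 4 and 2 in ex14D. The covered length of Pknox2, 13.7 and 25.7 kb against 15.1 and 8.03 kb, overlapped between genotypes. The libraries had 12318 and 19978 peaks in all in control and 14441 and 9465 in ex14D, and their part in this count was not tested. Meis3 peaks over the window were 6.99 and 7.82 kb wide in control and 3.17 and 0.453 kb in ex14D.

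Pbx3 (chr2:34171457-34372045, minus strand) had a different arrangement, with a peak on each side of the start. In control the downstream peak ran from 0.081 and 0.145 kb to 3.71 and 3.79 kb into the gene and so reached into the promoter window by 420 and 356 bases. In ex14D it ran from 0.885 and 0.955 kb to 2.68 and 2.30 kb and stopped 385 and 455 bases from the window. An upstream peak was present in all 4 libraries, 1.20 and 2.85 kb wide in control and 0.975 and 0.865 kb wide in ex14D. The downstream peak was 3.63 and 3.65 kb wide in control against 1.80 and 1.34 kb in ex14D, without overlap. Pbx3 therefore kept H3K27me3 peaks on both sides of the start in ex14D while the CPM of the counted window itself was below input. A level below input was usual, with a median over all promoters of -1.93 in ex14D on the log2 scale, close to Pbx3 at -1.87.

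**Figure D3:**
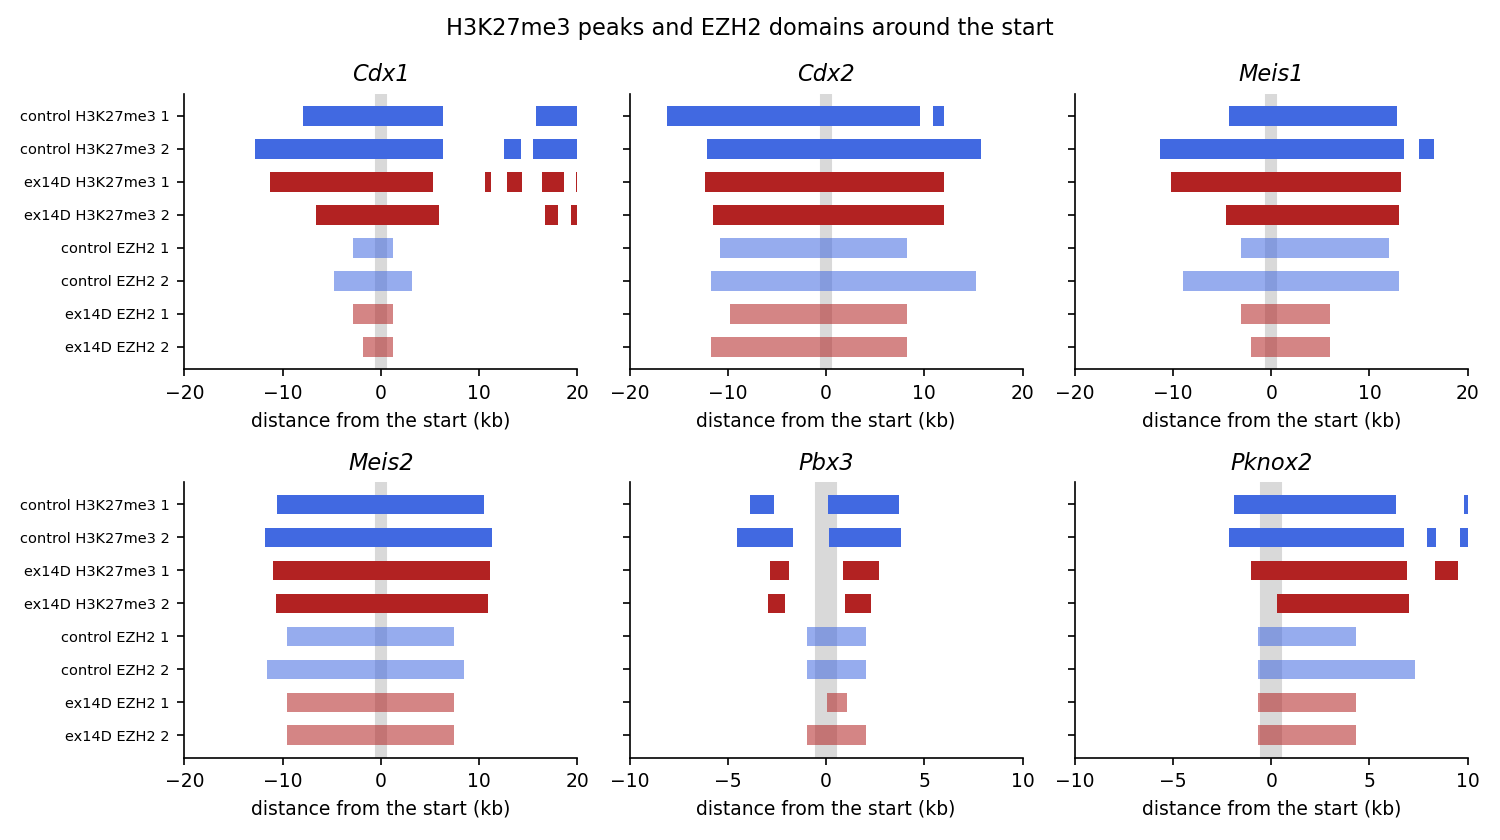
Extent of H3K27me3 peaks (dark) and EZH2 domains (light) around the starts of 6 genes, by library, with distance from the start in kb (positive into the gene) and the 1 kb counting window in grey; Pbx3 and Pknox2 are drawn on a shorter axis and intervals are clipped at the axis ends. The Cdx2 and Meis2 blocks are alike in all 4 H3K27me3 libraries, and the downstream Pbx3 peak lies outside the window in ex14D. The Meis1 EZH2 domains end at 5.97 kb in both ex14D libraries against 12.0 and 13.0 kb in control.

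EZH2 was compared to see where the enzyme itself lay. The EZH2 count tables followed gene length (Spearman rho 0.886 to 0.923 across 13886 genes in the 4 libraries, where genes are not independent replicates, against 0.066 to 0.173 for H3K27me3 and input), so they are taken as reads over the gene and given per kb of gene when genes are compared. Cdx1, Meis1, Pbx2 and Pbx4 are listed at 0 in all 4 EZH2 tables. So are 10575 of the 24500 genes, and the zeros come in blocks: along their chromosomes Cdx1 lay in a run of 249 consecutive genes at 0, Meis1 in one of 345, Pbx4 in one of 559 and Pbx2 in one of 603. Why these blocks are at 0 was not tested, and no EZH2 level is given for these 4 genes.

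Of the 5 genes with EZH2 counts, Cdx2 stood far above the rest per kb. It had 3239 and 4061 reads in control and 2166 and 1851 in ex14D, or 36.8 and 34.7 CPM per kb against 25.0 and 17.7 CPM per kb, which put it in the top 0.778% of genes with counts in control. All 5 genes passed the filter on low counts, and the fit covered 13401 genes. EZH2 fell at 3 of the 5, Cdx2, Meis2 and Pknox2, where 7.88% of all genes tested fell. EZH2 rose at 0 of the 5, where 0.0522% of genes tested rose and 7.93% were called in either direction (edgeR's quasi-likelihood test, with 0 of the 5 at an unadjusted p under 0.05 and 0 by DESeq2). The log2 fold change of Cdx2 was -0.78 (SE 0.14, adjusted p = 0.0147 by edgeR), and both ex14D libraries lay below both control libraries.

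Meis2 had 5078 and 6870 EZH2 reads in control and 4275 and 4445 in ex14D, or 1.78 and 1.81 CPM per kb against 1.52 and 1.31. It fell by 0.38 on the log2 scale (SE 0.07, adjusted p = 0.0139 by edgeR's quasi-likelihood test). Pknox2 had 5645 and 7522 reads against 5043 and 5346, or 1.59 and 1.59 CPM per kb against 1.44 and 1.27, and fell by 0.27 (SE 0.06, adjusted p = 0.0310 by edgeR). In both genes the ex14D libraries lay below the control libraries without overlap. The EZH2 domains covered 3.61% to 4.45% of Meis2 and 1.69% to 2.86% of Pknox2 but the whole of Cdx2, so most of the length counted for the first 2 lay outside domains.

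Pbx3 had 2961 and 4074 EZH2 reads in control and 2929 and 3497 in ex14D. These are 1.06 and 1.10 CPM per kb against 1.07 and 1.06, which overlap. After TMM scaling both ex14D libraries were lower, at 212.9 and 208.8 CPM against 216.6 and 224.7 CPM. Domains covered 0.997% to 1.02% of Pbx3, so most of the length counted lay outside them. The log2 fold change of Pbx3 was -0.07 (SE 0.04, adjusted p = 0.491 by edgeR). That of Meis3, with 154 to 232 reads a library, was -0.11 (SE 0.11, adjusted p = 0.721 by edgeR). The median over genes with counts was 0.966 CPM per kb in both control libraries, so Pbx3 and Meis3, at 0.999 to 1.13 CPM per kb in control, were not far above it, with 27.3% and 29.8% of these genes at or above them. The 3 EZH2 calls rested on both control libraries: without either, edgeR called 0 of the 5 genes lower and 0 genes lower in the whole table, although 3 of the 5 and 1372 or 1300 genes in all were lower at an unadjusted p under 0.05. The log2 fold changes without control library 1 and without control library 2 were -0.74 and -0.82 for Cdx2, -0.40 and -0.37 for Meis2 and -0.28 and -0.27 for Pknox2, close to those with all libraries. With DESeq2 only Cdx2 was called, while Meis2 was at -0.39 (adjusted p = 0.0725) and Pknox2 at -0.28 (adjusted p = 0.410).

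**Figure D4:**
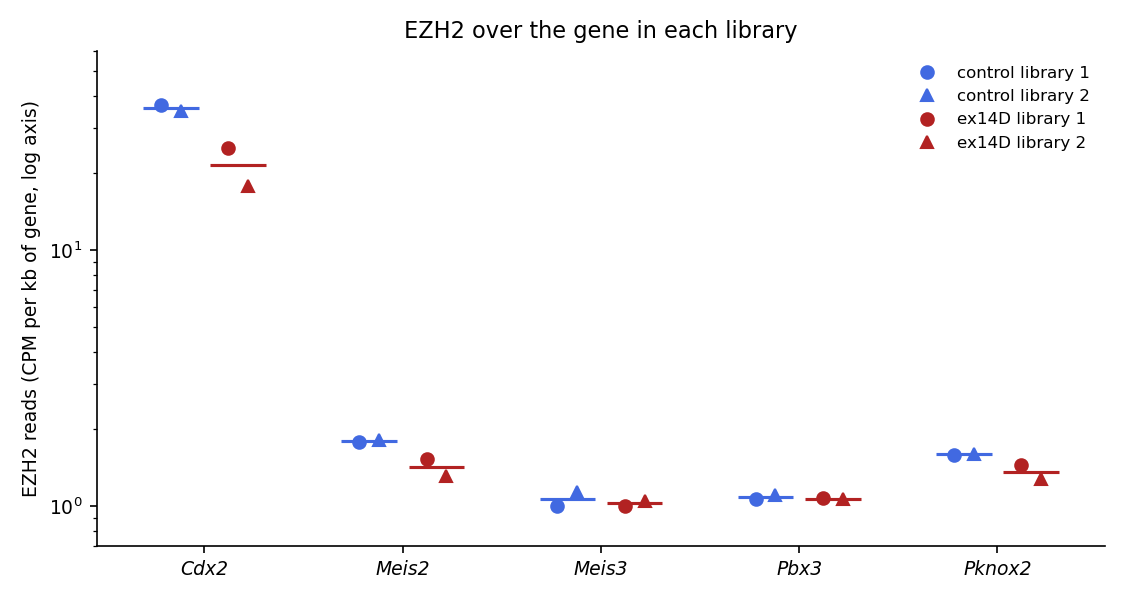
EZH2 reads over the gene in CPM per kb (log axis) for the 5 genes with counts, with 1 point for each library and short bars for means, control in blue and ex14D in red. Cdx2 falls from 36.8 and 34.7 in the control libraries to 25.0 and 17.7 in the ex14D libraries, while the other 4 genes lie between 0.999 and 1.81 in every library.

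The EZH2 domains, called by the authors with hiddenDomains in each library, gave a second view that also covers genes listed at 0. A domain overlapped the promoter window in both control libraries at 6 of the 9 genes (Cdx1, Cdx2, Meis1, Meis2, Pbx3 and Pknox2), where 16.8% of placed promoters had one. The same 6 genes had one in both ex14D libraries, where 10.4% did. With an overlap of at least 500 bases, 6 genes had one in control and 5 in ex14D, because the Pbx3 overlap was 456 bases in ex14D library 1. The share of all promoters at that overlap was not computed. Domains thus lay over Cdx1 and Meis1 in all 4 libraries although their counts are listed at 0. At Cdx2 the domain was 19 and 27 kb wide in control and 18 and 20 kb in ex14D, and at Meis2 17 and 20 kb against 17 kb in both ex14D libraries.

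Of the 6 genes with a domain over the start in all 4 libraries, Meis1 alone had widths there that did not overlap between the genotypes. At Cdx1, Meis2, Pbx3 and Pknox2 the genotypes met only at a shared width, of 4, 17, 3 and 5 kb in turn. With so few libraries, separate widths can arise by chance, and how often other genes had them was not tested. The domain over the start of Meis1 reached 12.0 and 13.0 kb into the gene in control and 5.97 kb in both ex14D libraries. Its widths were 15 and 22 kb against 9 and 8 kb. The H3K27me3 peak at the same place reached 12.8 and 13.5 kb into the gene in control and 13.3 and 13.0 kb in ex14D, so the EZH2 domain ended nearer to the start in ex14D and the H3K27me3 peak did not. Domains near the 3′ ends of Meis1 and Meis2 were also narrower in ex14D. Those at Meis1 lay wholly past the end of the gene and were 10 kb wide in both control libraries and 8 kb in both ex14D libraries. Those at Meis2 lay mostly past the end in control and wholly past it in ex14D. They were 10 kb wide in both control libraries and 7 and 8 kb in ex14D. The ex14D libraries had 5067 and 4122 EZH2 domains against 7322 and 7704 in control, and the part of this in the Meis1 and Meis2 values was not tested. At Pbx3 the domain over the start was 3 kb wide in both control libraries and 1 and 3 kb in ex14D. Pbx2 and Pbx4 had no domain within 5 kb, and Meis3 had 1 in control library 2 alone.

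At Cdx2 and Meis2 the changes of H3K27me3 and EZH2 had opposite signs. H3K27me3 at the Cdx2 and Meis2 promoters rose relative to other promoters while EZH2 over these genes fell. At Pbx3 H3K27me3 fell while EZH2 was at -0.07 and did not pass the test. Most of the length counted for EZH2 at Meis2 and Pbx3 lay outside domains, so a change confined to the start could be missed. The measures cover different windows and are each relative to their own libraries, and the difference between them was not tested.

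The genes that act before and after these regulators were read from the same fits. Of 17 genes for signals and factors upstream of Cdx (Wnt, FGF and retinoic acid genes with T, Tbx6 and Gdf11), 14 were tested for H3K27me3, of which 8 rose and 0 fell, where 5.83% of all promoters tested rose and 3.25% fell, with a median log2 fold change of 0.76. The largest were Lef1 (1.69), a Wnt effector, Cyp26a1 (1.07) and Aldh1a2 (1.06), which break down and make retinoic acid, and Fgf8 (1.05). With library size only 4 rose and 3 fell. Of the 39 Hox cluster genes, the targets of Cdx and the partners of Meis and Pbx, all were tested, 36 rose and 0 fell, with a median of 1.57, and with library size only 36 rose and 0 fell with a median of 1.12. Cdx2 and Meis2 were below this Hox median. Hoxb3 (2.09), Hoxa11 (1.98), Hoxa9 (1.96) and Hoxd10 (1.96) changed most. Hoxa10 (1.62) and Hoxd9 (1.81) also rose in share. For both genes the paper reports less H3K27me3 in ex14D cells by ChIP-PCR, so these rises need not be a gain of the mark.

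Of 6 further Cdx and TALE genes (Cdx4, Pknox1, Tgif1, Tgif2, Mkx and Pbxip1), 3 were tested and 0 passed in either direction. Cdx4, the caudal gene on the X chromosome, was at 116 and 129 CPM in control and 98.6 and 96.2 CPM in ex14D (log2 fold change 0.11, adjusted p = 0.861 by edgeR). It lay at a log2 level over input of 2.03 in control, within the SD of Meis1. For EZH2, where 7.88% of all genes tested fell, 13 of 16 tested Hox genes did (median -0.63). They were led by Hoxd1 (-1.20), Hoxd12 (-0.89), Hoxd3 (-0.87) and Hoxa13 (-0.78). Of the upstream genes 3 of 9 tested fell, T, the mesoderm factor Brachyury (-0.89), Wnt8a (-0.70) and Aldh1a2 (-0.37), and of the further Cdx and TALE genes 1 of 3, Mkx (-0.50). None of these lists had a gene that rose for EZH2, and their calls, like all other EZH2 calls, rested on both control libraries. Over all genes tested the EZH2 median was 0.02.

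The genes whose levels were most like each member were found by the Euclidean distance of log2(CPM + 1) over the 4 H3K27me3 and 2 input libraries. Cdx2 was nearest to the forkhead gene Foxf2 (0.33), the homeobox gene Nkx2-4 (0.42) and the homeobox gene Six2 (0.42). Meis2 was nearest to Pantr1 (0.37), Dmrt3 (0.46) and Tfap2b (0.46), and Meis1 to Unc5b (0.19), Ncs1 (0.26) and Rab6b (0.32). For Cdx1 the nearest were Irf5 (0.29), Robo3 (0.36) and Slc6a4 (0.38). Pbx3 had no close match, with Socs7 at 0.57, Tsc22d2 at 0.73 and Slc2a4 at 0.76, and Pknox2 likewise, with Grin1 at 0.58 as its nearest. The nearest gene was Alpl for Meis3 (0.16), Mir673 for Pbx2 (0.23) and Pdpk1 for Pbx4 (0.35).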

How the data were processed

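E14 mouse embryonic stem cells were profiled by ChIP-seq. Per the labels and the study's methods, reads were aligned to mm10 by Bowtie, htseq-count assigned them to genes, and the authors deposited raw counts with no normalization. MACS2 broad peaks were deposited with a fold enrichment (a ratio) and −log10 p and q values, and EZH2 intervals came from hiddenDomains. Tool versions are not given in the sources used here. H3K27me3 intervals from hiddenDomains were not used, because 143 to 270 of them per library run past the ends of the GRCm38 chromosomes, and MACS2 peaks were used instead.

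Rows that name no gene were left out. Reads outside the counted windows made up 91.97% to 97.96% of the H3K27me3 and input tables and 33.8% to 34.9% of the EZH2 tables, where a further 21.2% to 21.9% were ambiguous. Control and ex14D libraries of 1 antibody were compared with edgeR 4.0.16 (glmQLFit and glmQLFTest, R 4.3.3) after TMM scaling and filterByExpr, with Benjamini-Hochberg adjustment over all features and a threshold of 0.05. SEs were derived from each log2 fold change and its F statistic. DESeq2 1.42.0 was an alternative. TMM factors for H3K27me3 were 1.15 and 1.18 in control and 0.871 and 0.843 in ex14D. With 2 libraries against 2, an exact permutation test of a single value could not go below 0.333, so none was used.

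Gene positions are those of RefSeq transcripts on GRCm38, found for 24367 of 24500 genes, with the most 5′ start taken as the start. Replicates differed by more than sampling noise (chi-square per degree of freedom 1.49 to 4.01), so none was counted as a duplicate. Intervals and tests cover counting error and the spread of these libraries only. The 9 genes and the gene lists were chosen with earlier results of these data known. All 9 genes are named, and of the other lists at most 4 genes past the threshold, largest change first. Also named are Hoxa10 and Hoxd9, which the paper measured by ChIP-PCR, genes for the marker counts and the nearest 3 genes by distance. One gene of the further Cdx and TALE list is not reported here.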

Additional observations from a re-analysis of the deposited data

How the results depend on the processing

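The call for Pbx3 (H3K27me3) was kept in each of 12 alternatives, those for Cdx2 and Meis2 in 11 of 12, and that for Meis1 in 6 of 12. Scaling by library size only gave 2130 promoters lower and 398 higher, 2 of the 9 genes lower (Pbx3 and Pknox2), and a Cdx1 value of -0.071 in place of 0.38. DESeq2 gave 264 promoters lower, and TMM over unmarked promoters 282. For EZH2, genes called higher numbered 47 when only library size was used, 33 when that size took in all counted reads, 2 under DESeq2 size factors and 0 under DESeq2, which had 7 at an unadjusted p under 0.05, and DESeq2 called 1 of the 9 genes lower. Leaving out 1 library at a time gave 55 to 610 promoters lower and 183 to 797 higher, 0 to 2 of the 9 genes higher and 1 lower for H3K27me3, and for EZH2 0 to 1561 genes lower, 0 to 81 higher and 0 to 3 of the 9 genes lower. A lone library was then taken to vary like the other group, and the cause of these differences was not tested.

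Libraries share replicate numbers across genotypes, but same-numbered libraries did not deviate together (correlation of deviations -0.10 for H3K27me3 and -0.03 for EZH2), so the numbers were not taken as pairs. With the replicate number as a block, 411 promoters were lower and 765 higher with the same 4 members called, and for EZH2 852 genes were lower and 3 higher, with the Pknox2 call lost (adjusted p = 0.0516 by edgeR) and no other member call changed. The crossed pairing for H3K27me3, chosen after seeing the data, called 802 promoters lower and 2 of the 9 genes lower. Depth limits the low counts: Pbx2 and Pbx4 had 7 to 16 reads a library, and each input is a single library.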
